A study of Mus musculus with 15 samples.

Results

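The 32 genes described here make cholesterol and fatty acids in mouse cells, or control how much of them is made. They are 17 enzymes of the sterol pathway from Hmgcs1 to Dhcr7, 6 genes of sterol sensing and transport, and 9 genes of fatty acid synthesis and desaturation. They were taken by gene symbol, and the list does not hold every gene of these pathways. Each symbol matched a single identifier among the 55471 genes of the count table, and all 32 passed the filter on low counts in both experiments.

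Cells build cholesterol from acetyl-CoA through mevalonate, isoprenoids, squalene and lanosterol, and build fatty acids from the same acetyl-CoA through malonyl-CoA. When sterols are scarce, the escort protein SCAP carries the SREBP transcription factors, encoded by Srebf1 and Srebf2, from the endoplasmic reticulum to the Golgi, where proteases free the active factor. When sterols are plentiful, INSIG proteins hold SCAP in the endoplasmic reticulum. The product of Srebf2 acts mainly on sterol genes and the main short form from Srebf1 mainly on fatty acid genes, and Insig1 is itself a target of these factors.

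Polyadenylated RNA of 15 libraries was sequenced in 2 experiments, and the labels name the cell type MSCLCs without spelling it out, while the series title speaks of bone mesenchymal stem cells and of the fusion oncogene EWS::FLI1. Experiment 1 set 4 libraries of the genotype label EFPrx1MSCLC, called EFPrx1 here (title numbers 219, 221, 225 and 229), against 3 of the label MSC, called WT here (202, 234 and 237). The titles of 234 and 237 also carry WT, and that of 202 does not. Experiment 2 held 2 libraries of the label ha, 4 of hr and 2 of EF. All 8 titles of experiment 2 carry the number 221, those of ha also Combi and T, those of hr Combi, uns and a number, 1 or 2, with 2 libraries each, called line 1 and line 2 here. The series' design names the 3 groups ha-EFPrx1, hr-EFPrx1 and EFPrx1, so all of them carry EFPrx1. The sources used here do not say what ha, hr, Combi and uns stand for, what drives the fusion, how cells were treated or how old the animals were. Whether a group's libraries are separate cultures or animals is unstated, and the p-values describe library-to-library spread alone, some of it possibly technical.

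Total counts ran between 14906180 and 26833876 in experiment 1 and between 11195371 and 16378368 in experiment 2, and the 32 genes took 0.235 to 0.405% and 0.309 to 0.771% of them. Both EF libraries, and both libraries of each hr line, were near repeats: their squared differences were 1.27 to 1.30 times what counting noise alone gives, against 20.7 times between the 2 ha libraries, 16.3 to 17.4 times between the hr lines and 7.68 to 120 times within the groups of experiment 1. Within WT, library 202 stood apart from 234 and 237 by 120 and 84.3 times, against 11.9 times between 234 and 237. The 12 blood cell markers summed to 65.3 to 421 CPM (counts scaled by TMM to a common library size, with no correction for gene length) in EFPrx1 and 12187 to 34042 CPM in WT, and 11 of the 12 were lower in EFPrx1. They summed to 16.6 to 62.0 CPM in experiment 2. The 13 mesenchymal markers were all above 0 in experiment 1, and in experiment 2 all but Lum, which was at 0 in hr line 2. Between EFPrx1 and WT they moved both ways, 1 higher (Prrx1), 3 lower (Col1a1, Col3a1 and Pdgfrb) and 9 not passing, with a median log2 fold change of 0.36; their sum, mostly collagen RNA in WT, was 3526 to 8574 CPM in EFPrx1 and 21566 to 41352 CPM in WT. In bulk RNA, fewer cells of a type and less RNA per cell cannot be told apart.

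In EFPrx1 cells, 8 of the 32 genes were lower than in WT, none was higher and 24 did not pass the test (edgeR's quasi-likelihood test, Benjamini-Hochberg adjusted p under 0.05). Over all 14596 genes tested, 12.1% were lower and 7.70% higher; the difference between these shares and the members' was not tested. The 8 are Insig1, 5 sterol enzymes (Mvd, Fdps, Msmo1, Cyp51 and Fdft1) and the desaturases Fads1 and Fads2. The median log2 fold change of the 32 genes was -0.76, beside 0.04 over all genes tested. In 16 of the 32 every EFPrx1 library was below every WT library. The share of all genes lying so was not computed, so this count has no background to be read against. At an unadjusted p under 0.05, 16 of the 32 passed, beside 5309 of all 14596 genes tested. Blood cell markers moved with the genotype as given above. Of 7 adipocyte markers, summing to 8.62 to 25.8 CPM in EFPrx1 and 274 to 914 CPM in WT, 5 were tested. Lpl and Fabp4 were lower, and Adipoq, Cidec and Pparg did not pass. Nearly all of the WT sum was Lpl (894, 414 and 201 CPM in WT 202, 234 and 237) and Fabp4 (16.3, 154 and 71.4 CPM). Adipoq, Plin1, Cidec and Lep reached at most 0.757 CPM in any library of experiment 1. The sum therefore describes Lpl and Fabp4 rather than the 7 markers together. The 8 proliferation markers summed to 1337, 1280, 134 and 1157 CPM in EFPrx1 libraries 219, 221, 225 and 229 and to 214 to 586 CPM in WT. None of the 8 passed. Mitochondrial reads took 4.06 to 8.43% of counts in EFPrx1, highest in EFPrx1 225, and 1.63 to 3.52% in WT. The part of these markers and of mitochondrial reads in these results was not tested.

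**Figure D1:**
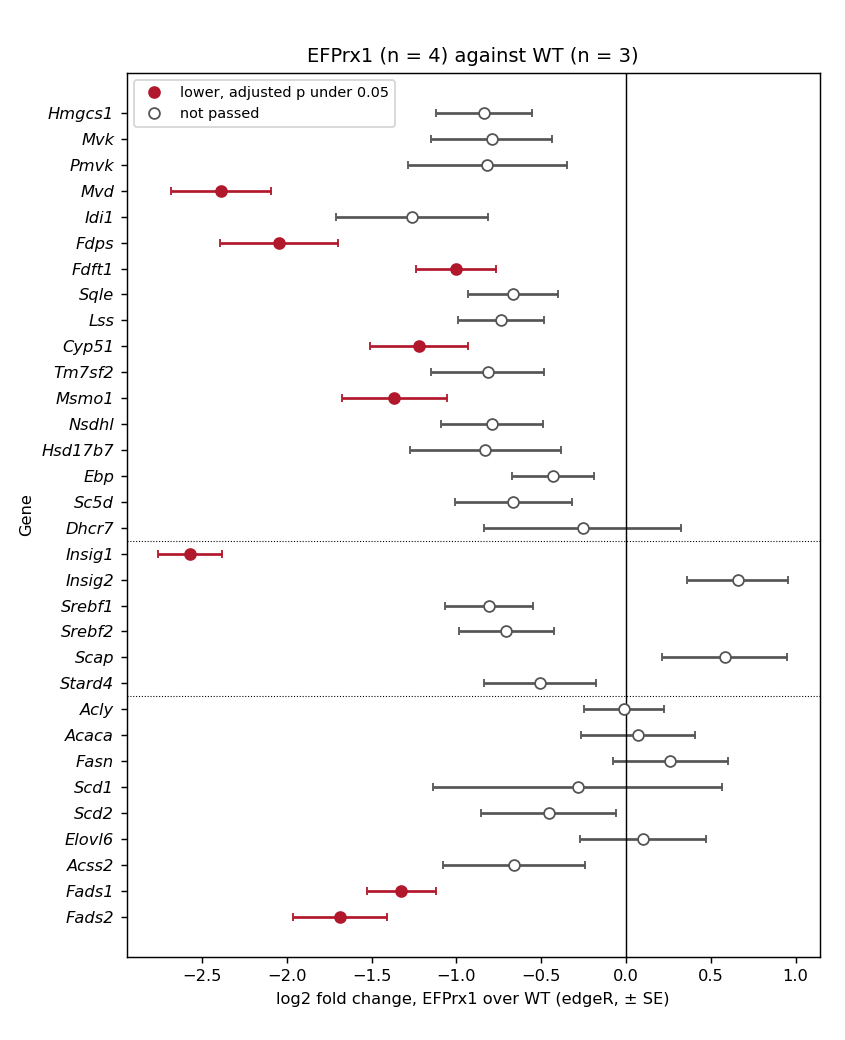
Log2 fold change of EFPrx1 (n = 4) over WT (n = 3) for each of the 32 genes, from edgeR, with bars for ± 1 SE; filled points mark the 8 genes lower at an adjusted p under 0.05 and open points the 24 that did not pass. Dotted lines part sterol enzymes (top), sensing and transport genes (middle) and fatty acid genes (bottom), and Insig1 lies farthest left at -2.57.

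Among the sensing genes, Insig1, which encodes a protein that retains SCAP in the endoplasmic reticulum, differed most. Insig1 (ENSMUSG00000045294, chr5:28071363-28078662 on GRCm38, + strand) had 26.0, 25.3, 24.7 and 22.0 CPM in EFPrx1 libraries 219, 221, 225 and 229, against 157, 131 and 149 CPM in WT libraries 202, 234 and 237. The EFPrx1 libraries lay close together and far below all WT libraries, with means of 24.5 ± 1.72 (SD, n = 4) and 145 ± 13.0 CPM (SD, n = 3). The log2 fold change was -2.57 ± 0.19 (SE, edgeR adjusted p = 0.000646).

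Its paralog Insig2 (ENSMUSG00000003721), which also retains SCAP, had 66.6, 87.0, 64.8 and 79.3 CPM in EFPrx1 and 68.4, 31.7 and 41.4 CPM in WT, and the groups overlapped through WT 202. The log2 fold change of 0.66 ± 0.30 did not pass the test (adjusted p = 0.155), but it did without WT 202 (1.03, adjusted p = 0.0167). The ratio of Insig1 to Insig2 CPM, uncorrected for transcript length and so read only between libraries, was 0.278 to 0.390 in EFPrx1 and 2.29 to 4.14 in WT.

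Both SREBP genes lay lower in each EFPrx1 library than in any WT library without passing the test. Srebf1 had 74.8, 59.6, 98.8 and 56.2 CPM in EFPrx1 and 144, 124 and 112 CPM in WT (-0.81 ± 0.26, adjusted p = 0.0644). Srebf2 had 108, 97, 63.7 and 97.6 CPM in EFPrx1 and 196, 128 and 124 CPM in WT (-0.70 ± 0.28, adjusted p = 0.112). The table counts genes, so the short and long forms of Srebf1 are not told apart. Scap, the escort, ran the other way with overlapping groups: 86.1, 148, 78.8 and 125 CPM in EFPrx1 and 111, 58.9 and 49.7 CPM in WT (0.58 ± 0.37, adjusted p = 0.289). Stard4, a carrier of cholesterol between membranes, did not pass (-0.51 ± 0.33, adjusted p = 0.301).

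**Figure D2:**
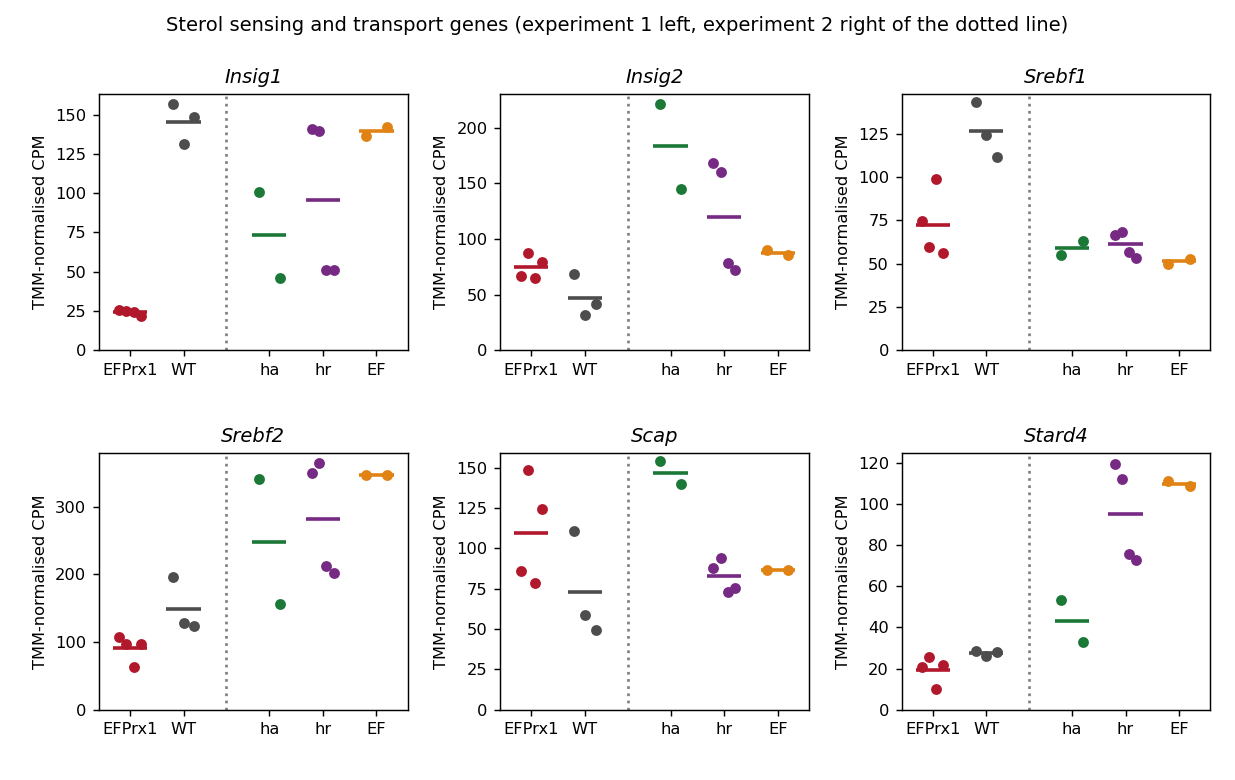
TMM-normalised CPM of the 6 sensing and transport genes in each library (points) with the group mean (bar), experiment 1 (EFPrx1, WT) left and experiment 2 (ha, hr, EF) right of the dotted line, normalised separately. The 4 EFPrx1 points of Insig1 lie between 22.0 and 26.0 CPM, the WT points between 131 and 157 CPM.

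Of the 17 sterol enzymes, 5 were lower in EFPrx1 and 12 did not pass. All 17 log2 fold changes were negative, Dhcr7 turning positive when libraries were scaled by their totals, and their median was -0.82. In 10 enzymes the groups did not overlap, again with no share over all genes computed. The largest differences among the enzymes were those of Mvd and Fdps, which act between mevalonate and farnesyl diphosphate. Mvd, which decarboxylates mevalonate diphosphate, had 13.3, 9.54, 8.79 and 10.8 CPM in EFPrx1 and 35.8, 69.0 and 61.9 CPM in WT (-2.39 ± 0.29, adjusted p = 0.0031). Fdps, the farnesyl diphosphate synthase, had 74.3, 54.7, 40.9 and 52.3 CPM in EFPrx1 and 132, 304 and 252 CPM in WT (-2.05 ± 0.35, adjusted p = 0.00802). In both, WT 202 was the lowest WT library and still above every EFPrx1 library.

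Msmo1 and Cyp51, which strip methyl groups from lanosterol and its products, were lower as well. Msmo1 had 46.7, 61.9, 27.9 and 66.5 CPM in EFPrx1 and 135, 123 and 135 CPM in WT (-1.37 ± 0.31, adjusted p = 0.0223). Cyp51 had 61.2, 59.0, 34.4 and 72.0 CPM in EFPrx1 and 160.1, 125 and 111 CPM in WT (-1.22 ± 0.29, adjusted p = 0.0261). In both genes EFPrx1 225 was the lowest library. Fdft1, which joins farnesyl units into squalene, had 59.0, 57.1, 38.3 and 66.7 CPM in EFPrx1 and 104, 121 and 107 CPM in WT (-1.0 ± 0.24, adjusted p = 0.0248). Without WT 234, or without WT 237, the calls of Msmo1, Cyp51 and Fdft1 were lost.

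Sqle, the squalene epoxidase and an oxygen-requiring control step, did not pass although its groups did not overlap. It had 97.1, 66.6, 57.5 and 86.8 CPM in EFPrx1 and 148, 98.7 and 120.1 CPM in WT (-0.67 ± 0.26, adjusted p = 0.112). Hmgcs1, Idi1, Lss and Nsdhl were alike in this, with log2 fold changes of -0.84, -1.26, -0.74 and -0.79. Dhcr7, which reduces the last precursor in one branch, varied most of the sterol enzymes among EFPrx1 libraries, with 54.6, 9.26, 26.1 and 12.5 CPM in EFPrx1 and 32.5, 32.2 and 27.1 CPM in WT.

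Fads1 and Fads2, neighbouring genes on chromosome 19 that encode the desaturases of polyunsaturated fatty acids, were lower in EFPrx1, and the other 7 did not pass. Fads1 had 75.9, 67.0, 76.2 and 73.5 CPM in EFPrx1 and 215, 175 and 159.5 CPM in WT (-1.32 ± 0.20, adjusted p = 0.00601). Fads2 had 48.6, 29.3, 27.3 and 38.6 CPM in EFPrx1 and 145, 103 and 98.2 CPM in WT (-1.68 ± 0.28, adjusted p = 0.00727). No EFPrx1 library reached the lowest WT library in either gene.

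Fasn, the fatty acid synthase, had 243, 217, 270.3 and 201 CPM in EFPrx1 and 298, 127 and 158 CPM in WT (0.26 ± 0.34, adjusted p = 0.604). Acaca, the acetyl-CoA carboxylase that feeds it, had 83.9, 76.2, 70.1 and 72.9 CPM in EFPrx1 and 116, 46.1 and 54.0 CPM in WT (0.07 ± 0.34, adjusted p = 0.897). In both genes WT 202 was above, and the other WT libraries below, all EFPrx1 libraries; without WT 202 both passed as higher (0.71, adjusted p = 0.0457 for Fasn and 0.60, adjusted p = 0.0373 for Acaca). Acly, which makes cytosolic acetyl-CoA from citrate, had a log2 fold change of -0.01 ± 0.24, and Elovl6, which elongates palmitate, one of 0.10 ± 0.37.

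The stearoyl-CoA desaturases varied within EFPrx1. Scd1 had 231, 17.2, 215 and 34.2 CPM in EFPrx1 libraries 219, 221, 225 and 229 and 173, 98.7 and 182 CPM in WT, so that EFPrx1 held both the highest and the lowest libraries. Scd2 had 885, 419, 836 and 532 CPM in EFPrx1 and 1298, 619 and 828 CPM in WT (-0.45 ± 0.40, adjusted p = 0.438). Acss2, which makes acetyl-CoA from acetate, had 5.64, 5.04, 11.2 and 6.12 CPM in EFPrx1 and 6.88, 12.3 and 13.9 CPM in WT (-0.66 ± 0.42, adjusted p = 0.287).

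Insig1, Mvd, Fdps, Fads1 and Fads2 were called lower in all 13 alternative analyses of experiment 1. The total of 8 rested on single libraries: it was 14 without WT 202 (11 lower and 3 higher) and 5 without WT 234 or without WT 237.

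Promoters of 4 members are shown because they hold the range of what was seen: Insig1 and Mvd, the genes with the largest differences, Fasn, which did not pass, and Hmgcs1, the single member with a match to the sterol motif. They are the 250 bases before the start in RefSeq on GRCm38.p6, read 5′ to 3′ on the gene's strand. Capitals mark matches on either strand to TCACNCCAC, the core of a sterol regulatory element, or to CCAAT, the box bound by NF-Y; in Fasn a pair of CCAAT matches on opposite strands overlaps.
Insig1, chr5:28071162-28071411, + strand: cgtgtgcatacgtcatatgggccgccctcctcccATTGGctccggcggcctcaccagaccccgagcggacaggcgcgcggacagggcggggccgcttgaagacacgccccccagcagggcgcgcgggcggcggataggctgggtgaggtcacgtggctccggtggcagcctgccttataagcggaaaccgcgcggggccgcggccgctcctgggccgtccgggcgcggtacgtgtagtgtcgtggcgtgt
Mvd, chr8:122443423-122443672, - strand: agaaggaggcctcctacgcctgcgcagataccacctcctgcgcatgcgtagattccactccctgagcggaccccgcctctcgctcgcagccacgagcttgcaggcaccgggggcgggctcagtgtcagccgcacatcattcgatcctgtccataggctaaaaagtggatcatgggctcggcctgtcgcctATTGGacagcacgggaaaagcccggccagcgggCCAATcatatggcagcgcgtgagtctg
Hmgcs1, chr13:119690101-119690350, + strand: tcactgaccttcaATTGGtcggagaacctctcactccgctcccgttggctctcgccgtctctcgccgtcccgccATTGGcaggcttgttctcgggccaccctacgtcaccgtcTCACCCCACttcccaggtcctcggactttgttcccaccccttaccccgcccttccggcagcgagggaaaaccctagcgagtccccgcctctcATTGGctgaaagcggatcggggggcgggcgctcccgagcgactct
Fasn, chr11:120824548-120824797, - strand: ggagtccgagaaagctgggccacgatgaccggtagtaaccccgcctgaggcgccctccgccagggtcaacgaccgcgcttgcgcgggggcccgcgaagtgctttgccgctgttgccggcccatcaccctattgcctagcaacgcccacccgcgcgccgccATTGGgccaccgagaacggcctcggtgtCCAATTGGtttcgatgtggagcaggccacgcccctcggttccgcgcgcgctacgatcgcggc
RefSeq windows, which reach 50 bases past the start, were at hand for 25 of the 32 members. TCACNCCAC was found in 1 of the 25 (Hmgcs1, 4%) and in 1.44% of 27025 genes. CCAAT was found in 21 of the 25 (84%) and in 41.1% of all genes. Per window, CCAAT was in 22 of 33 windows of members (66.7%) and 37.4% of all windows. These are letter matches, not measured sites.

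Genes next to the 32 in their pathways were read from lists of their own. None of the 7 genes of other mevalonate branches (isoprenoid, dolichol and ubiquinone synthesis) and none of 6 SREBP proteases and INSIG partners passed in EFPrx1 against WT. At an unadjusted p under 0.05, 2 and 1 did, beside 5309 of all 14596 genes tested. Of 8 cholesterol export and storage genes, 2 were lower. Nr1h3, a sterol-sensing nuclear receptor, fell by 3.90 on the log2 scale (adjusted p = 0.0366), and the lysosomal cholesterol carrier Npc2 fell by 1.63 (adjusted p = 0.0386). Both are also expressed in macrophages, and the blood cell markers given above were lower too; their part in these calls was not tested. Of 14 other fatty acid genes, 1 was higher and 3 were lower. The elongase Elovl1 had a log2 fold change of -1.37 ± 0.19 (adjusted p = 0.00433), and Mid1ip1, a partner of acetyl-CoA carboxylase, one of -2.23 ± 0.33 (adjusted p = 0.00513).

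In experiment 2, the levels of the 32 genes varied widely within the groups ha and hr. The 17 sterol enzymes summed to 1531 CPM in ha 1 and 680 CPM in ha 2, to 2731 and 2744 CPM in hr line 1 and 996 and 985 CPM in hr line 2, and to 2239 and 2211 CPM in EF. The 9 fatty acid genes summed to 3072 and 1720 CPM in ha, 3922 and 3920 CPM in hr line 1, 2464 and 2455 CPM in hr line 2, and 3169 and 3166 CPM in EF. Line 1 of hr lay above EF and line 2 below it in both sums. The sum of sterol enzymes over that of fatty acid genes, taken in CPM, was 0.499 and 0.395 in ha, 0.696 to 0.700 in hr line 1, 0.401 to 0.404 in hr line 2 and 0.698 to 0.707 in EF.

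**Figure D3:**
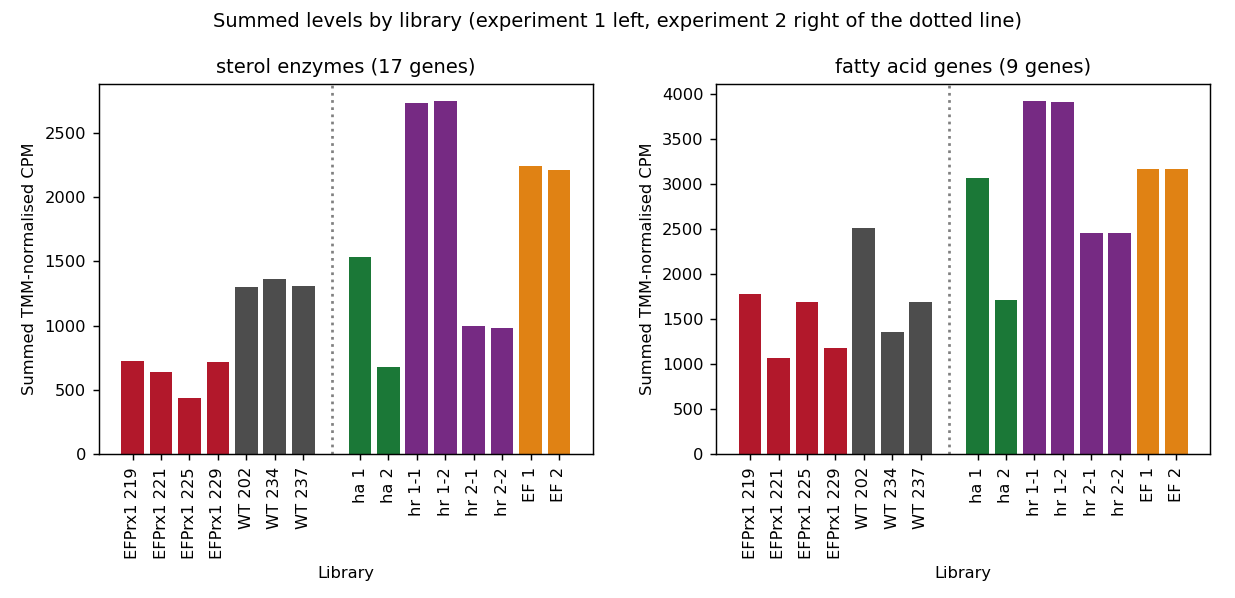
Summed TMM-normalised CPM of the 17 sterol enzymes (left panel) and the 9 fatty acid genes (right panel), one bar per library, experiment 1 (EFPrx1, WT) left and experiment 2 (ha, hr, EF) right of the dotted line, normalised separately. The sterol bars of hr line 1 reach 2731 and 2744 CPM and those of hr line 2 996 and 985 CPM.

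**Figure D4:**
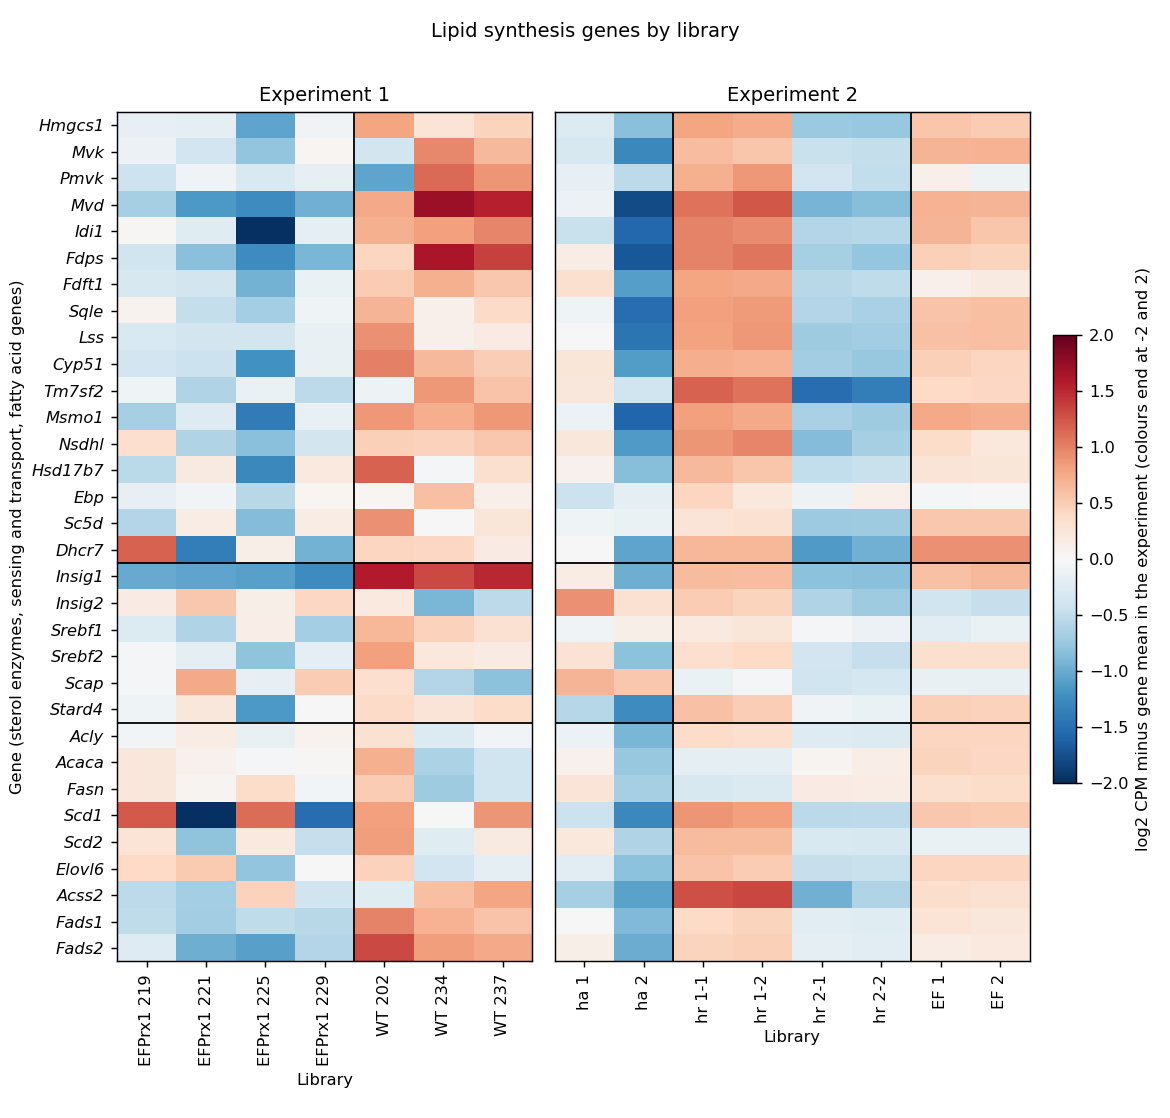
Log2 CPM of the 32 genes (rows) in each library (columns), each gene centred on its mean over the libraries of the experiment, with colours ending at -2 and 2; black lines part the groups and the gene lists. In experiment 2 most rows are red in hr line 1 and EF and blue in ha 2 and hr line 2.

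In ha cells, 1 of the 32 genes was higher than in EF, 2 were lower and 29 did not pass. Over the 13998 genes tested 23.0% were higher and 19.6% lower, so the counts of members are no larger than that background. All 17 sterol enzymes and all 9 fatty acid genes had negative log2 fold changes, with medians of -0.96 and -0.71, beside 0.05 over all genes tested. Scd2, at -0.01, turned positive when genes under a mean of 5 CPM were left out, and Scd2 and Fdft1 did without ha 2. Both ha libraries lay below both EF libraries in 26 of the 32 genes and above them in 3. The shares of all genes lying so were not computed, so these counts have no background to be read against. At an unadjusted p under 0.05, 8 of the 32 passed, beside 7188 of all 13998 genes tested. The members' share is below that background. All 8 proliferation markers were lower in ha, summing to 695 and 1114 CPM, against 2334 and 2362 CPM in EF; of the mesenchymal markers 9 were higher and 1 was lower, and they summed to 24844 and 22607 CPM in ha, against 8722 and 8947 CPM in EF. Their part in these results was not tested.

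The 3 calls were Scap, Stard4 and Mvk. Scap had 154 and 140.0 CPM in ha and 86.4 and 86.7 CPM in EF (0.76 ± 0.14, adjusted p = 0.0046). Stard4 (chromosome 18) had 53.5 and 33.1 CPM in ha and 111 and 109 CPM in EF (-1.34 ± 0.31, adjusted p = 0.0109). Mvk, the mevalonate kinase, had 33.1 and 16.8 CPM in ha and 65.9 and 66.9 CPM in EF (-1.41 ± 0.46, adjusted p = 0.0414). In all 3 genes ha and EF did not overlap. This does not set them apart, since ha lay below EF in 26 of the 32 genes and above it in 3. The 2 ha libraries lay near each other for Scap and apart for Mvk. Scap alone was called when either EF library or ha 2 was left out. With the near-repeat libraries summed, so that EF became a single sample, none of the 32 genes passed, while 438 of all genes were higher and 298 lower.

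Insig2 was high in ha without passing, at 221 and 145 CPM in ha and 89.7 and 85.9 CPM in EF (1.06 ± 0.44, adjusted p = 0.0904). Insig1 had 100.4 and 46.1 CPM in ha and 137 and 142 CPM in EF (-0.93 ± 0.60, adjusted p = 0.248). The Insig1 to Insig2 ratio was 0.454 and 0.318 in ha, 0.838 and 0.875 in hr line 1, 0.655 and 0.704 in hr line 2, and 1.52 and 1.65 in EF, so that every ha and hr library had a lower ratio than EF. Srebf1 had 55.2 and 63.0 CPM in ha and 50.1 and 52.7 CPM in EF (0.20 ± 0.15, adjusted p = 0.312). Srebf2 had 341 and 156 CPM in ha and 346 and 347 CPM in EF (-0.48 ± 0.41, adjusted p = 0.381), and ha 1 came close to EF.

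Among the sterol enzymes of ha, Idi1, which isomerises isopentenyl diphosphate, had 85.9 and 39.6 CPM in ha and 187 and 173 CPM in EF (-1.52 ± 0.63, adjusted p = 0.0884). Msmo1 had 88 and 31.8 CPM in ha and 162 and 158 CPM in EF (-1.42 ± 0.65, adjusted p = 0.117). Dhcr7 had 22.2 and 10.8 CPM in ha and 42.1 and 42.3 CPM in EF (-1.36 ± 0.66, adjusted p = 0.137). In each of these the ha 2 library was the lowest, as for Sqle, which had 274 and 102 CPM in ha and 434 and 443 CPM in EF (-1.22 ± 0.64, adjusted p = 0.161). Library ha 1 lay above ha 2 in 16 of the 17 sterol enzymes, with a median ratio of 2.17, and in all 9 fatty acid genes, with a median ratio of 1.78. Of the 10573 genes whose mean in experiment 2 reached 5 CPM, 51.9% were higher in ha 1.

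The fatty acid genes nearest to the threshold in ha were Acaca and Acly. Acaca had 179 and 101 CPM in ha and 232 and 225 CPM in EF (-0.71 ± 0.25, adjusted p = 0.0549). Acly had 328 and 188 CPM in ha and 475 and 475 CPM in EF (-0.88 ± 0.32, adjusted p = 0.0566). Both genes were lower in each ha library than in either EF library. Scd1 had 105 and 57.9 CPM in ha and 204 and 204 CPM in EF (-1.32 ± 0.56, adjusted p = 0.09). Elovl6 had 61.2 and 40.2 CPM in ha and 95.1 and 94.9 CPM in EF (-0.91 ± 0.40, adjusted p = 0.105). Fasn, the synthase, had 432 and 228 CPM in ha and 452 and 465 CPM in EF (-0.47 ± 0.30, adjusted p = 0.244). Without ha 1, Fasn, Acaca, Acly, Fads1 and Fads2 passed as lower; this leaves 1 ha library, taken to vary like the other groups.

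The lists around the 32 genes are read against the 23.0% of all genes higher and 19.6% lower in ha, and their shares were not tested against these. Of the 7 genes of other mevalonate branches, 1 was higher and 3 were lower, among them Pdss1 and Pdss2, which make the side chain of ubiquinone. Pdss1 had 2.78 and 3.77 CPM in ha and 18 and 19.3 CPM in EF (-2.50 ± 0.25, adjusted p = 0.000442). Pdss2 had 11.1 and 8.43 CPM in ha and 26.9 and 23.3 CPM in EF (-1.36 ± 0.23, adjusted p = 0.00306). Among 6 SREBP proteases and INSIG partners, Mbtps1, the site-1 protease that cuts SREBPs, rose by 0.61 on the log2 scale (adjusted p = 0.0232), and Erlin1, which binds cholesterol and SREBPs in the endoplasmic reticulum, fell by 1.30 (adjusted p = 0.000431). Of the 6 cholesterol export and storage genes tested of 8, 3 were higher and none lower, the exporter Abca1 with 10.8 and 26.9 CPM in ha and 2.31 and 3.75 CPM in EF (2.63 ± 0.68, adjusted p = 0.0177) and Npc2 with 509 and 409.7 CPM in ha and 156 and 147 CPM in EF (1.60 ± 0.19, adjusted p = 0.000771). Of the 14 other fatty acid genes, 1 was higher and 5 were lower, led by Hsd17b12 (-1.29 ± 0.15, adjusted p = 0.000771) and Elovl1 (-0.85 ± 0.13, adjusted p = 0.00197), both in the elongation of fatty acids.

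None of the 32 genes passed the test between hr and EF. Over all genes 3.88% were higher and 3.07% lower. None of the 32 had an unadjusted p under 0.05, while 3641 of all 13998 genes tested did. Neither the DESeq2 Wald test nor limma-voom called any of the 32. The median log2 fold change was -0.21 over the 32 genes and 0.01 over all genes. That group value joins lines that lay on either side of EF. Line 1 was above both EF libraries in 24 of the 32 genes and below them in 6. Line 2 was below both in 30 and above in 1. The shares of all genes lying so were not computed. The log2 difference from EF was positive in 26 of the 32 genes for line 1 and in 2 for line 2. Over all 13998 genes tested it was positive in 7067 and 6785. The 2 hr libraries of a line are near repeats, so hr is in effect a pair of lines, and their difference is given as a description with no test.

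Line 1 lay above line 2 in 30 of the 32 genes, among them all 17 sterol enzymes and all 6 sensing and transport genes. Of the 10573 genes whose mean reached 5 CPM, 40.5% were above in line 1 and 40.2% below. The median ratio of line 1 to line 2 was 2.77 for the sterol enzymes, 1.64 for sensing and transport genes, 1.58 for fatty acid genes and 1.00 for the 10573 genes. Proliferation markers ran the other way, summing to 1243 and 1220 CPM in line 1 and 1931 and 1950 CPM in line 2; their part in the difference was not tested.

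**Figure D5:**
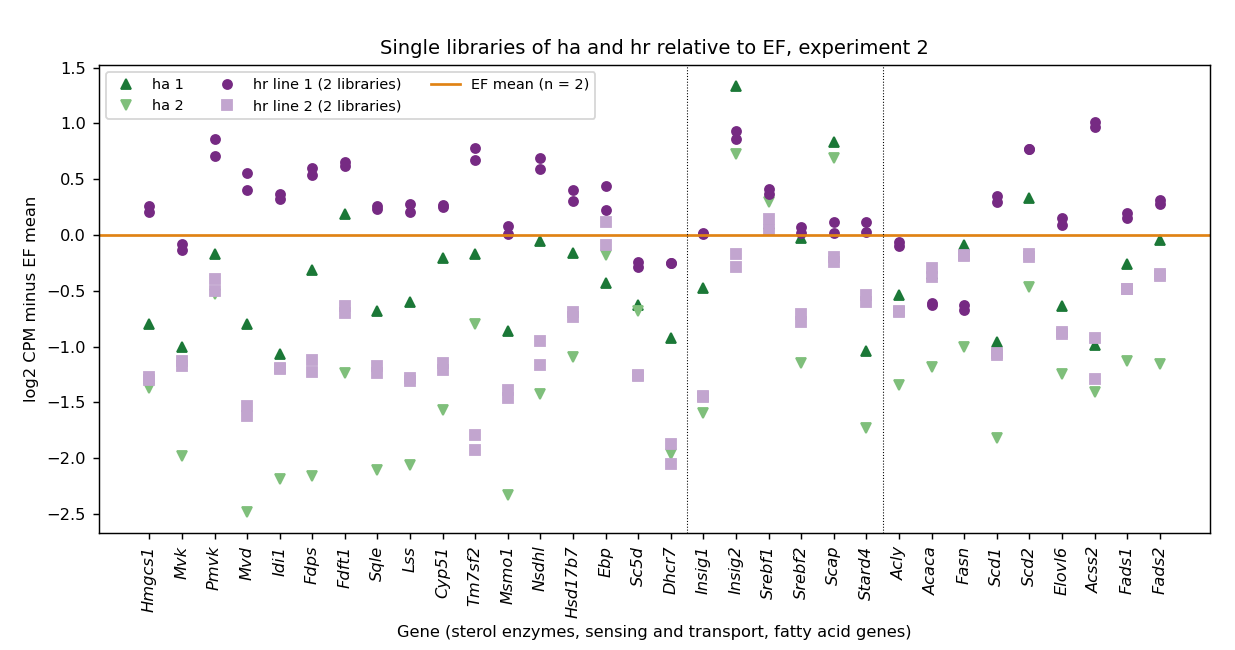
Log2 CPM of the single ha and hr libraries minus the mean of EF (orange line, n = 2) for the 32 genes of experiment 2; triangles are ha 1 and ha 2, circles hr line 1 and squares hr line 2, and dotted lines part the lists. Circles lie above squares in all genes but Acaca and Fasn, and the squares of Tm7sf2 and Dhcr7 lie lowest among those of line 2.

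The pattern ran the length of the sterol pathway. Hmgcs1, which makes HMG-CoA at its start, had 301 and 290.3 CPM in hr line 1, 104 and 102 CPM in hr line 2 and 254 and 247 CPM in EF. Mvd had 97.5 and 108 CPM in hr line 1, 24 and 25.5 CPM in hr line 2 and 74.2 and 73.0 CPM in EF. Sqle had 514 and 526 CPM in hr line 1, 195 and 186 CPM in hr line 2 and 434 and 443 CPM in EF. In these 3 genes both libraries of line 1 exceeded both of EF, and both of line 2 lay below them. Msmo1 had 169 and 161 CPM in hr line 1, 61.1 and 58.1 CPM in hr line 2 and 162 and 158 CPM in EF, and here line 1 overlapped EF. Tm7sf2, a sterol reductase with low counts, had the widest gap, with 11.6 and 10.8 CPM in hr line 1, 1.78 and 1.95 CPM in hr line 2 and 6.74 and 6.79 CPM in EF. Ebp, a sterol isomerase, had the narrowest of the enzymes, with 48.9 and 42.2 CPM in hr line 1, 33.8 and 39.1 CPM in hr line 2 and 35.7 and 36.4 CPM in EF.

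The 3 sterol enzymes of lowest p in hr against EF were those where both lines lay on the same side. Sc5d, a sterol desaturase, had 82.1, 84.9, 41.7 and 41.9 CPM in hr and 100.2 and 100.4 CPM in EF (-0.68 ± 0.31, adjusted p = 0.213). Dhcr7 had 35.5, 35.5, 10.2 and 11.5 CPM in hr and 42.1 and 42.3 CPM in EF (-0.87 ± 0.55, adjusted p = 0.363). Mvk had 63.0, 60.6, 30.4 and 29.5 CPM in hr and 65.9 and 66.9 CPM in EF (-0.53 ± 0.39, adjusted p = 0.424). In these 3 genes every hr library was below both EF libraries. The log2 fold change of Ebp was 0.18 ± 0.16 (adjusted p = 0.496) and that of Sqle -0.30 ± 0.54 (adjusted p = 0.771).

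The regulators separated the lines to different degrees. Insig1 had 141 and 139.9 CPM in hr line 1, 51.2 and 50.8 CPM in hr line 2 and 137 and 142 CPM in EF, so line 1 lay within the range of EF and line 2 below it (-0.54 ± 0.50 for hr over EF, adjusted p = 0.54). Insig2 had 168 and 159.8 CPM in hr line 1, 78.1 and 72.1 CPM in hr line 2 and 89.7 and 85.9 CPM in EF (0.44 ± 0.39, adjusted p = 0.512). Srebf2 had 350.4 and 364 CPM in hr line 1, 213 and 202 CPM in hr line 2 and 346 and 347 CPM in EF (-0.30 ± 0.35, adjusted p = 0.64). Line 2 was thus the lower line in all of these, by log2 differences of 1.46, 1.13 and 0.79. Srebf1 and Scap separated the lines least of the 6, by 0.29 each. Srebf1 had 66.4, 68.4, 56.7 and 53.1 CPM in hr and 50.1 and 52.7 CPM in EF (0.25 ± 0.13, adjusted p = 0.273). Scap had 87.7, 93.7, 73.2 and 75.6 CPM in hr and 86.4 and 86.7 CPM in EF (-0.07 ± 0.12, adjusted p = 0.773).

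Fasn and Acaca, the pair at the core of fatty acid synthesis, were the 2 genes in which line 2 was above line 1. Fasn had 288 and 296 CPM in hr line 1, 404 and 401 CPM in hr line 2 and 452 and 465 CPM in EF (-0.40 ± 0.26, adjusted p = 0.372). Acaca had 149.8 and 148 CPM in hr line 1, 176 and 186 CPM in hr line 2 and 232 and 225 CPM in EF (-0.47 ± 0.21, adjusted p = 0.213). All hr libraries were below EF in both genes, and Acaca passed when ha 1 or ha 2 was left out of the shared fit or ha was left out altogether (adjusted p = 0.0485, 0.0480 and 0.0472).

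In the other 7 fatty acid genes line 1 lay above line 2, as in the sterol enzymes. Acss2 had the widest gap of the 9, with 44.4 and 46.0 CPM in hr line 1, 9.28 and 12.0 CPM in hr line 2 and 23.1 and 22.4 CPM in EF. Scd2 had 2103 and 2104 CPM in hr line 1, 1099 and 1081 CPM in hr line 2 and 1239 and 1233 CPM in EF (0.37 ± 0.36, adjusted p = 0.562). Scd1 had 259.7 and 249.8 CPM in hr line 1, 96.8 and 97.8 CPM in hr line 2 and 204 and 204 CPM in EF. Scd1 and Scd2 are close paralogs on chromosome 19, between which reads may have been divided. Acly had 456, 445, 296 and 294 CPM in hr and 475 and 475 CPM in EF (-0.35 ± 0.27, adjusted p = 0.452), below EF in every hr library.

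Outside the 32 genes, hr differed from EF in 4 genes of the neighbouring pathway lists, while 3.88% of all genes were higher and 3.07% lower. Tested in these lists were 7 genes of other mevalonate branches, 6 SREBP proteases and INSIG partners, 6 export and storage genes and 14 other fatty acid genes. The difference between the shares was not tested. Pdss1 had 9.61, 7.83, 11.1 and 11.4 CPM in hr and 18 and 19.3 CPM in EF (-0.90 ± 0.20, adjusted p = 0.0401). Soat1, which esterifies cholesterol for storage, had 119, 113, 117 and 117 CPM in hr and 72.1 and 75.1 CPM in EF (0.66 ± 0.15, adjusted p = 0.0439). The fatty acid genes Hsd17b12 and Acsl1 fell by 0.65 and 0.72 on the log2 scale (adjusted p = 0.0307 and 0.0439). In these 4 genes both hr lines lay on the same side of EF. All 4 calls were lost with near repeats summed. Among the markers tested, 1 of 2 epithelial markers was higher in hr. Lower were 1 of 13 mesenchymal, 1 of 4 blood cell, 1 of 2 adipocyte and 1 of 8 proliferation markers. The part of these markers in the results was not tested.

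Between hr and ha, 2 of the 32 genes were higher in hr, 1 was lower and 29 did not pass, while 17.9% of all genes were higher and 21.5% lower. The higher genes were Stard4 and Ebp. Stard4 had 119, 112, 75.6 and 72.7 CPM in hr and 53.5 and 33.1 CPM in ha (1.13 ± 0.28, adjusted p = 0.0153). Ebp had 48.9, 42.2, 33.8 and 39.1 CPM in hr and 26.8 and 31.8 CPM in ha (0.48 ± 0.16, adjusted p = 0.0436), a call lost in 12 of 17 alternatives. The lower gene was Scap, with 87.7, 93.7, 73.2 and 75.6 CPM in hr and 154 and 140.0 CPM in ha (-0.83 ± 0.12, adjusted p = 0.00168). Scap was the most stable of the 3 and was lost only with near repeats summed (adjusted p = 0.0724), where none of the 32 passed; Stard4 was lost there too, and without ha 2. This comparison and that of ha against EF share the ha libraries, so the Scap and Stard4 values are the same ha values seen from another side.

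For the other 29 genes, hr and ha overlapped, and ha 1 lay above both libraries of hr line 2 in all sterol enzymes but Ebp. Neither ordering was counted over all genes, so both lack a background to be read against. The median log2 fold change was 0.64 for the sterol enzymes, 16 of 17 positive, and 0.51 for the fatty acid genes, 9 of 9 positive, beside 0.00 over all genes; under limma-voom 15 of the 17 were positive, Tm7sf2 having turned. Leaving out single libraries gave 14 to 17 of 17 sterol enzymes and 7 to 9 of 9 fatty acid genes positive. Of the proliferation markers 4 of 8 were higher in hr, and of the mesenchymal markers 1 was higher and 9 of 13 were lower; their part in these results was not tested. Among the enzymes of low p, Idi1 had 233, 225, 78.2 and 78.8 CPM in hr and 85.9 and 39.6 CPM in ha (1.29 ± 0.57, adjusted p = 0.109), and Mvk a log2 fold change of 0.88 ± 0.41 (adjusted p = 0.126). Among the fatty acid genes, Acss2 had a log2 fold change of 1.47 ± 0.69 (adjusted p = 0.129), Scd1 one of 1.11 ± 0.50 (adjusted p = 0.112), Acly one of 0.53 ± 0.28 and Elovl6 one of 0.61 ± 0.35. The regulators Insig1 (0.39 ± 0.52), Insig2 (-0.62 ± 0.37), Srebf1 (0.05 ± 0.13) and Srebf2 (0.18 ± 0.36) did not pass, nor did Sqle (0.92 ± 0.57), Fasn (0.07 ± 0.26) and Acaca (0.24 ± 0.22).

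In the neighbouring lists, too, calls between hr and ha stand beside 17.9% of all genes higher and 21.5% lower, with no test of the difference. Of the 7 genes of other mevalonate branches, 3 were higher in hr and 1 was lower, Pdss1 (1.60 ± 0.22, adjusted p = 0.00152) and Pdss2 (1.13 ± 0.20, adjusted p = 0.00443) leading. Erlin1 was higher in hr (0.98 ± 0.11, adjusted p = 0.000716) and Mbtps1 lower (-0.55 ± 0.14, adjusted p = 0.0191), the 2 calls among 6 SREBP proteases and INSIG partners. Of 6 cholesterol export and storage genes tested, 1 was higher and 3 were lower in hr, Npc2 (-1.37 ± 0.15, adjusted p = 0.000617) and Abca1 (-2.66 ± 0.54, adjusted p = 0.00721) among the lower. Of 14 other fatty acid genes, 4 were higher and 2 lower, led by Elovl1 (0.85 ± 0.11, adjusted p = 0.00127) and Acacb (-1.61 ± 0.29, adjusted p = 0.00409), the mitochondrial-membrane form of acetyl-CoA carboxylase.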

How the data were processed

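The authors deposited 1 table of expected counts per gene, which RSEM estimates and which can hold decimals, for 15 libraries. The submitters' processing notes name STAR, RSEM and the genome build GRCm38.p6. Annotation release and strand use in counting were not given in the sources used here. Overlapping or antisense genes, and close paralogs, may therefore share reads. The members and lists were chosen with earlier results of these data known.

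Expected counts were rounded (8.27% of values held decimals; no total changed by over 0.000579%). Of 55471 genes, 55144 had a symbol. Each experiment was filtered (filterByExpr, minimum count 10), scaled by TMM and fitted alone, since the flowcells differ, with edgeR's robust quasi-likelihood test, two-sided, Benjamini-Hochberg adjusted over all genes tested, at a threshold of 0.05. EF, ha and hr shared 1 fit. SEs come from the F statistic. Levels are TMM-normalised CPM. Versions were edgeR 4.0.16, DESeq2 1.42.0 and limma 3.58.1 under R 4.3.3, and the fits were tested on simulated data. In experiment 1 the fit called no changed gene at the fold sizes first simulated; larger sizes were chosen on seeing this, and it then recovered most of the largest changes and missed most of the others. The simulation changed far fewer genes than passed in the data, which makes the adjusted threshold harder to reach. How many changes of each size the fit recovers in the data itself was not measured. A gene of experiment 1 that did not pass may still have changed severalfold. Same-numbered libraries did not deviate together (correlations -0.0368 to 0.0187), so no replicate block was used.

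Values are given in each comparison for Srebf1, Srebf2, Insig1, Insig2, Scap, Sqle, Fasn, Acaca and the 4 sterol enzymes and 4 fatty acid genes of lowest p, for neighbouring lists for up to 2 called genes of lowest p, and otherwise by counts or where a pattern is described. Gene positions are from GRCm38, and promoter sequences from RefSeq on GRCm38.p6. The alternatives were other scalings, filters and tests, each library left out in turn, near-repeat libraries summed, a replicate block, and fits of the compared groups alone.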

Additional observations from a re-analysis of the deposited data

How the results depend on the processing

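The count of members called in EFPrx1 against WT was 8 and ran between 5 and 14 when single libraries were left out, with 14 by the DESeq2 Wald test. In ha against EF it was 3 and became 5 with library totals as the scale, 5 with limma-voom, 9 with the DESeq2 Wald test, 11 with the compared groups alone and 0 with near repeats summed, and ran between 1 and 8 with single libraries left out. In hr against EF it was 0, became 1 with the compared groups alone, and ran between 0 and 1 with libraries left out. In hr against ha it was 3, became 6 with the DESeq2 Wald test and 0 with near repeats summed, and ran between 1 and 5 with libraries left out. With a replicate block, it was 2 in ha against EF, 0 in hr against EF and 2 in hr against ha, and the calls of Mvk (adjusted p = 0.0539) and Ebp (adjusted p = 0.0680) were lost. Leaving out single libraries turned the sign of 4 of the 32 genes in EFPrx1 against WT (Acaca, Acly, Elovl6 and Scd1), 2 in ha against EF (Fdft1 and Scd2), 8 in hr against EF (Acss2, Fads2, Fdft1, Fdps, Hsd17b7, Mvd, Nsdhl and Tm7sf2) and 9 in hr against ha (Acaca, Cyp51, Fasn, Fdft1, Insig1, Sc5d, Srebf1, Srebf2 and Tm7sf2), none of which had passed there. Among those with full values in the text were Acaca in EFPrx1 against WT (-0.17 to 0.60 on the log2 scale), and in hr against ha Insig1 (-0.072 to 1.06), Srebf1 (-0.038 to 0.15), Srebf2 (-0.27 to 0.86), Acaca (-0.12 to 0.72) and Fasn (-0.32 to 0.61). The cause was not tested. Scaling by library totals moved the median log2 fold change of all genes in EFPrx1 against WT to 0.30, against 0.04 with TMM, and the calls over all genes to 2084 higher and 1458 lower, against 1124 higher and 1763 lower; the sterol enzyme median was then -0.57. With near repeats summed, EF is 1 sample assumed to vary like ha and hr. Of the pathway genes named, Nr1h3, Acacb, Pdss1 and Tm7sf2 had the lowest mean counts over the 15 libraries.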

Other observations

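EFPrx1 library 221 of experiment 1 and the EF libraries of experiment 2 carry the same title number. The 17 sterol enzymes summed to 640 CPM in EFPrx1 221 and to 2239 and 2211 CPM in EF 1 and EF 2. For the 9 fatty acid genes the sums were 1073 CPM in EFPrx1 221 and 3169 and 3166 CPM in EF. Proliferation markers summed to 1280 CPM in EFPrx1 221 and 2334 and 2362 CPM in EF. The experiments were normalised separately, and their flowcells differ too, so flowcell and experiment cannot be told apart and these values were set side by side without a test.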
